A study of Canis lupus familiaris with 25 samples.

Results

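The 9 receptor tyrosine kinases KIT, PDGFRA, PDGFRB, CSF1R, FLT3, FLT1, KDR, FLT4 and RET, which are targets of the inhibitor toceranib or close relatives of them, were taken by symbol from a QuantSeq 3′ count table of 24532 canine genes, and all 9 were in it. QuantSeq 3′ reads each transcript near its 3′ end, so the values are the numbers of reads (counts) per gene. The samples were formalin-fixed, paraffin-embedded (FFPE) tumors of privately owned dogs, trimmed of adjacent tissue and otherwise sectioned whole. They comprised 10 hepatoid gland adenomas (HGA; dogs of 8 to 14 years), benign tumors of the perianal glands, 11 primary apocrine gland anal sac adenocarcinomas (AGASAC; 8 to 12.5 years), which are malignant, and 4 sublumbal lymph node metastases from the dogs of AGASAC 1 to 4 (8 to 10 years). The labels name no drug given to any dog, so whether a dog had received toceranib is not known. No value here can be read as a response to it. No strain, allele or transgene is involved, and the dogs were of many breeds and of both sexes, neutered and intact.

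Receptor tyrosine kinases span the cell membrane, dimerize when a ligand binds outside, and phosphorylate themselves and adaptor proteins inside, which passes the signal to the PI3K, MAPK, STAT and phospholipase C pathways. Toceranib is a small molecule that competes with ATP in the kinase domain of several of these receptors, and it is given to dogs with mast cell tumors, in which KIT is often mutated, and to dogs with anal sac adenocarcinoma. The receptors mark different cells: KDR, FLT1 and FLT4 the endothelium of blood and lymph vessels, PDGFRA and PDGFRB fibroblasts and the mural cells of vessels, CSF1R macrophages, FLT3 dendritic cells and blood progenitors, KIT mast cells and melanocytes, and RET neural and some epithelial cells. The question put to the data was how much RNA of each receptor the benign and the malignant perianal tumor carried, and whether the metastasis differed from its primary tumor.

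Counts on genes totaled 1562347 to 6389555 in HGA, 2581453 to 4218340 in primary AGASAC and 2857541 to 3289546 in the metastases, and levels are given as CPM, counts relative to the library total, scaled over all 25 samples. With 3 counts, the upper limit that a count of 0 allows, a library had 0.543 to 1.84 CPM. The labels held by summed markers: the squamous and sebaceous list (KRT5, KRT14, KRT79, TGM5, DSG3) summed to 4079 to 15230 CPM in HGA and at most 23.6 in the other samples, and the luminal list (KRT8, KRT18, KRT19, KRT7, ELF3, EHF) to 1.29 to 154 CPM in HGA and at least 2037 elsewhere. HGA 10 had the lowest squamous and sebaceous sum, and single genes of that list varied more. KRT79 ran from 39.1 through a median of 1701 to 2427 CPM in HGA, and TGM5 from 7.74 through 238 to 426. Both were lowest in HGA 10. HGA 4 and HGA 10 stood apart in several of the genes described here, and the genes in which they were farthest out are also given without them. By the file names of the study's sample sheet, 9 HGA, 3 primary AGASAC and the 4 metastases belonged to one series of names, and 7 primary AGASAC and the HGA numbered 10 to another, so tumor type and series could be separated only in part. Levels are not compared between genes.

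In HGA versus primary AGASAC, the receptors FLT4, KDR, FLT1, PDGFRA and PDGFRB had higher mean levels in HGA, but only FLT4 passed the test. CSF1R did not differ beyond its error, and KIT, FLT3 and RET were too low for the filter on low counts. A gene was called at an adjusted p of at most 0.05 (quasi-likelihood test of edgeR, Benjamini-Yekutieli adjustment over all genes tested) and a log2 fold change (log2FC) of at least 1 in size. Of 12070 genes tested, 3032 (25.1%) were called, 12.6% higher and 12.5% lower in HGA. Of the 6 receptors that passed the filter, 1 was called and 5 had an unadjusted p below 0.05, as had 6478 of the 12070 genes, so neither count set the receptors apart from other genes. Their median log2FC was 0.98 with 5 of 6 above 0, and that of all genes tested was −0.03 with 48.5% above 0. The groups overlapped in all 6, and CPM did not overlap between the groups in 9.13% of genes tested.

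**Figure D1:**
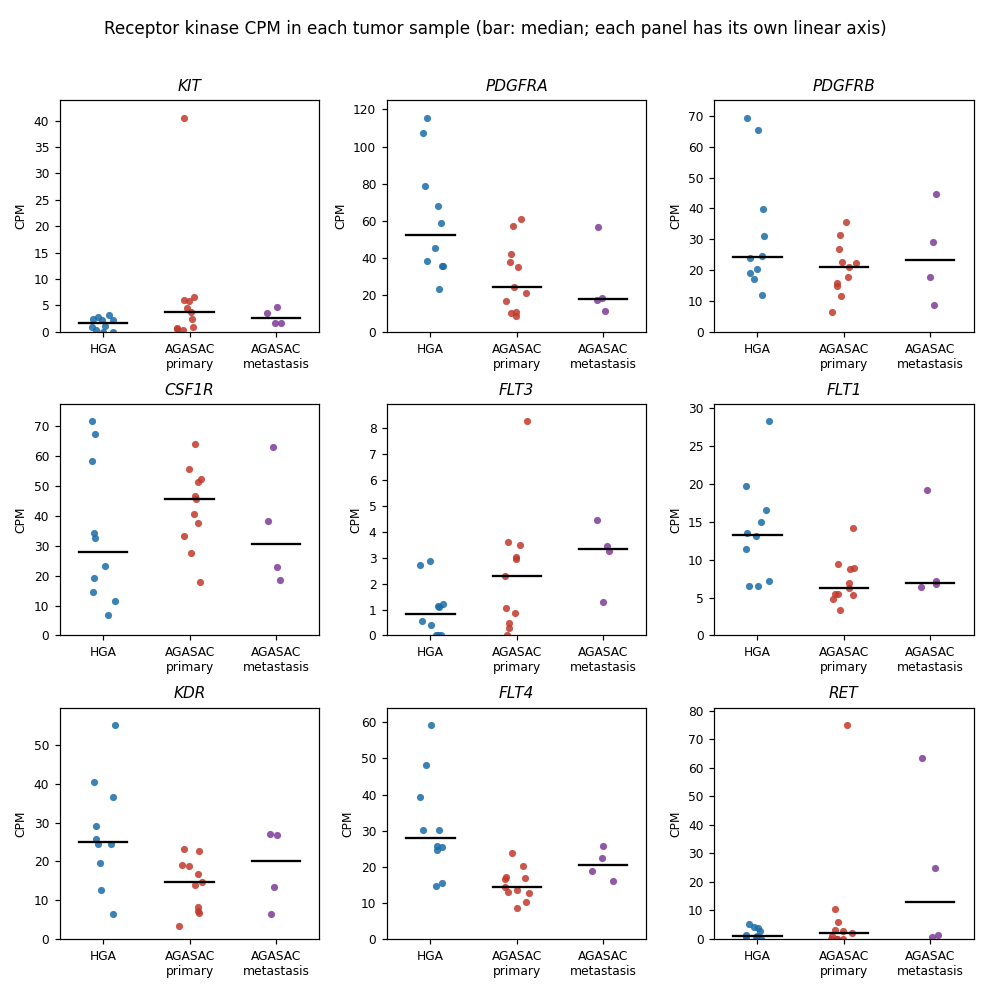
CPM of each receptor (vertical axis, linear, its own range per panel) in 10 HGA, 11 primary AGASAC and 4 metastases; each point is a sample and each bar a group median. FLT4 lies between 14.6 and 59.3 CPM in HGA and between 8.61 and 23.9 in primary AGASAC, while KIT and RET are near 0 apart from single tumors.

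FLT4, FLT1 and KDR are the receptors of the vascular endothelial growth factors (VEGF). FLT4, which binds VEGFC and VEGFD and drives growth of lymph vessels, had 14.6 CPM in the lowest HGA, a median of 28.01 and 59.3 in the highest, HGA 3. In primary AGASAC its lowest value was 8.61, its median 14.5 and its highest 23.9 CPM. HGA 6 and HGA 10, at 15.5 and 14.6 CPM, lay within the AGASAC range, and the other 8 HGA lay above every primary AGASAC. HGA averaged 31.3 ± 14.0 CPM (SD, n = 10), and primary AGASAC 15.2 ± 4.41 (SD, n = 11), with a log2FC of 1.07 (standard error, SE, 0.24, adjusted p = 0.00815 from edgeR). This lay close to the fold limit. Without HGA 3 the log2FC was 0.92 and without HGA 8 it was 0.97, so that FLT4 was no longer called, although the adjusted p was 0.023 and 0.0216.

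KDR, the main signaling receptor of VEGFA in blood vessels, had 6.47 CPM in the lowest HGA, HGA 5, a median of 25.1 and 55.3 in the highest, HGA 7. Primary AGASAC ran from 3.35 in AGASAC 8 through a median of 14.7 to 23.3 CPM. Of the 10 HGA, 7 lay above the highest AGASAC and HGA 2 and HGA 5 lay below the AGASAC median, so the groups overlapped. The log2FC was 0.99 (SE 0.34, adjusted p = 0.197 from edgeR), which did not pass. FLT1, a high-affinity VEGF receptor that also has a soluble form which gene counts do not separate, ran from 6.45 through a median of 13.3 to 28.2 CPM in HGA and from 3.34 through 6.20 to 14.1 in primary AGASAC. Its highest HGA was again HGA 7, and its highest AGASAC was AGASAC 6. The log2FC was 0.97 (SE 0.29, adjusted p = 0.0892 from edgeR). Without AGASAC 6 FLT1 was called at 1.12 (adjusted p = 0.0303), and without HGA 10 at 1.05 (adjusted p = 0.0428).

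Some endothelial markers were also higher in HGA. The blood endothelium list had all 12 genes in the table, none at 0 throughout a group, and summed to 249.9 to 717 CPM in HGA, 113 to 455 in primary AGASAC and 86.6 to 243 in the metastases. Its most abundant marker, VWF, had a median of 121 CPM in HGA and 54.5 in primary AGASAC. Of its 10 genes tested, 4 were called, all higher in HGA (CLDN5, ECSCR, CDH5 and TIE1), against 25.1% of all genes, and the median log2FC was 1.17. ESAM, not called, had a log2FC of −1.87 (adjusted p = 0.212). The lymphatic list had 5 of 5 genes tested, with CCL21 called higher in HGA (log2FC 4.28) and PROX1 called lower (log2FC −2.19). It summed to 9.03 to 172 CPM in HGA and to 7.74 to 593 in primary AGASAC, where AGASAC 2 held 575 CPM of MMRN1. In bulk tissue, more cells of a type and more RNA per cell cannot be told apart, and the part of vessel content in the receptor levels was not tested.

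PDGFRA and PDGFRB receive the platelet-derived growth factors. PDGFRA ran from 22.9 in HGA 9 through a median of 52.0 to 116 CPM in HGA 4, and in primary AGASAC from 8.74 in AGASAC 7 through 24.5 to 61.1 CPM in AGASAC 2. HGA 1 to 4 were the only HGA above every AGASAC. The log2FC was 1.06 (SE 0.36, adjusted p = 0.171 from edgeR), so that PDGFRA had a fold near that of FLT4 with a wider error and was not called. PDGFRB, the receptor of pericytes and other mural cells, ran from 12.0 through 24.2 to 69.5 CPM in HGA and from 6.29 through 21.1 to 35.6 in primary AGASAC. Here HGA 3, HGA 4 and HGA 7 alone exceeded the AGASAC range. The log2FC was 0.67 (SE 0.32, adjusted p = 0.831 from edgeR), and 0.47 without HGA 4. The mural list (RGS5, NOTCH3, CSPG4, MCAM, ABCC9, KCNJ8, HIGD1B, ACTA2, MYH11) had 3 of 6 genes tested called, RGS5, ABCC9 and MCAM, all higher in HGA. Of all genes tested, 25.1% were called, 12.6% higher in HGA, and the difference in share was not tested. Mural markers summed to 114.5 to 565 CPM in HGA, with HGA 4 the highest, and to 54.0 to 245 in primary AGASAC. The fibroblast list had 0 of 10 genes called by edgeR (1 at an unadjusted p below 0.05 and 0 called by DESeq2).

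CSF1R, the receptor of macrophage colony-stimulating factor, ran from 6.88 in HGA 10 through a median of 27.8 to 71.6 CPM in HGA 1, and from 17.7 in AGASAC 11 through 45.6 to 64.1 in primary AGASAC. The HGA spread on both sides of the AGASAC, 3 of them below the lowest AGASAC and 2 above the highest. The log2FC was −0.31 (SE 0.34, adjusted p = 1 from edgeR), and −0.19 without HGA 10. Macrophage markers summed to 97.6 to 313 CPM in HGA and 197 to 561 in primary AGASAC. Of 10 tested, 2 were called, C1QB and CD14, both lower in HGA, against 25.1% of all genes called and 12.5% called lower. C1QA, the most abundant, had medians of 55.4 and 92.6 CPM.

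KIT, FLT3 and RET did not pass the filter, and their log2FC is from the fit without it. KIT, the receptor of stem cell factor, was at 0 in HGA 4 and HGA 5 and at most 3.16 CPM in the other HGA. In 10 primary AGASAC it was at 0.287 to 6.59 CPM, and AGASAC 11 had 40.6 CPM from 167 counts, while the 4 metastases had 1.62, 1.59, 3.54 and 4.79 CPM. AGASAC 11 alone stood far above the rest. The log2FC of −2.09 (SE 0.76, adjusted p = 0.359 from edgeR) was −1.06 without AGASAC 11. Of 8 mast cell markers, 6 were in the table, and they summed to 7.42 to 53.5 CPM in HGA and 3.86 to 45.7 in primary AGASAC. Melanocyte markers, of which 2 of 5 were in the table, summed to at most 3.60 CPM in any sample. AGASAC 11 itself had 3.89 CPM of mast cell and 0.243 CPM of melanocyte markers, near the low end of its group in both. The markers TPSAB1, TPSB2, TYR, DCT and TYRP1 were not in the table, and the source of KIT in AGASAC 11 was not tested.

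FLT3 had at most 2.88 CPM in HGA with 3 samples at 0. In primary AGASAC it ran from 0 in AGASAC 8 through a median of 2.29 to 8.27 CPM in AGASAC 6. At most 3 counts were found in 8 of 10 HGA and 5 of 11 AGASAC, and the log2FC was −1.25 (SE 0.78, adjusted p = 1 from edgeR). Dendritic cell markers, of which IRF8 was the most abundant, summed to 1.23 to 29.2 CPM in HGA and 7.12 to 45.5 in primary AGASAC.

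RET, the receptor of the GDNF family, was high in a few tumors and at or near 0 in the others. AGASAC 1 had 75.0 CPM and AGASAC 2 had 10.5, the other primary AGASAC had at most 5.93 with 4 of them, AGASAC 6 to 9, at 0, and no HGA exceeded 5.39. The log2FC of −2.25 (SE 1.04, adjusted p = 0.96 from edgeR) was −0.39 without AGASAC 1, and −0.33 in DESeq2, which replaced 1 outlying count in that fit. The group medians were 1.09 CPM in HGA and 1.95 in primary AGASAC. Schwann and neural markers were led by NGFR, with a median of 47.4 CPM in HGA and called higher there.

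**Figure D2:**
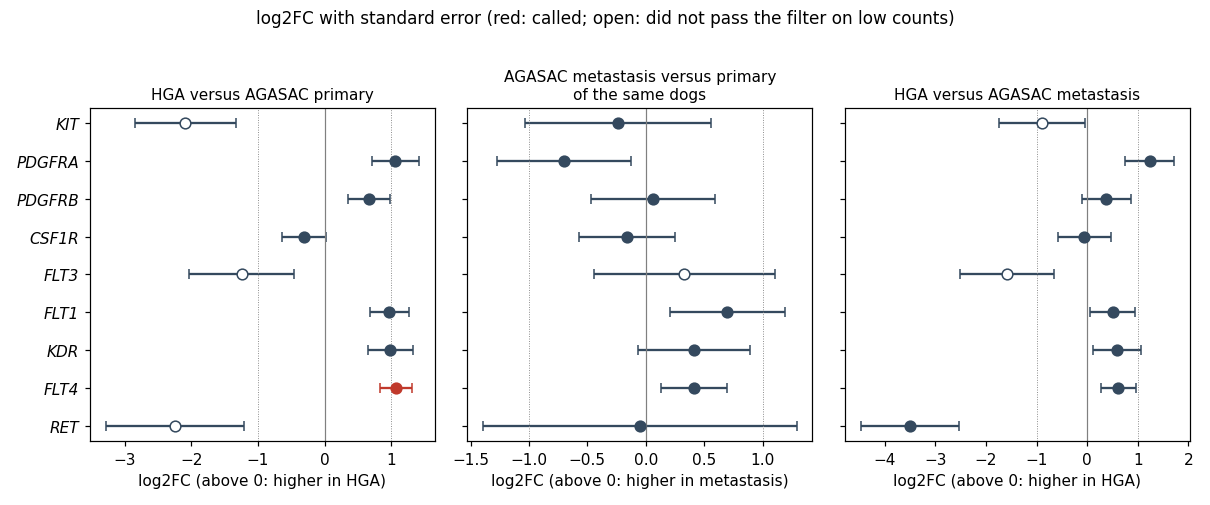
log2FC (horizontal axis) with its standard error for each receptor (vertical axis) in the 3 comparisons; red is called, open circles were below the low-count filter and come from the fit without it. FLT4 in HGA versus AGASAC primary, at 1.07, is the single called receptor, and RET has the widest bars, with a standard error of 1.34 between metastases and primaries. The fits shown hold no term for the dog. With the dog as a replicate block, the standard error of RET between metastases and primaries is 0.51.

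The direction within extraction batches was not the same for all receptors. Batches 5 (3 HGA, 3 primary AGASAC), 6 (3 and 2) and 8 (2 and 3) held enough samples of both types. FLT4 had a log2FC of 1.27, 1.23 and 0.31 in them, PDGFRA 1.2, 0.61 and 0.10, and FLT1 0.86, 0.41 and 1.89, all above 0. KDR and PDGFRB turned in batch 6, to −0.25 and −0.43, against 0.69 and 1.07 in batch 5 and 1.41 and 0.63 in batch 8. No receptor was called within a batch. With batch as a covariate FLT4 was called at 1.11 (SE 0.27, adjusted p = 0.0231 from edgeR), and within the file-name series that held 9 HGA and AGASAC 1 to 3 it had 1.28 (adjusted p = 0.2). In that series RET was called at −4.21 (adjusted p = 0.015), the AGASAC there being those with the highest RET. Scaled by library size alone, the median log2FC of all genes moved from −0.03 to −0.32 and the share of calls that were higher in HGA from 50.2% to 33.3%, and FLT4 fell to 0.78 (adjusted p = 0.109).

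**Figure D3:**
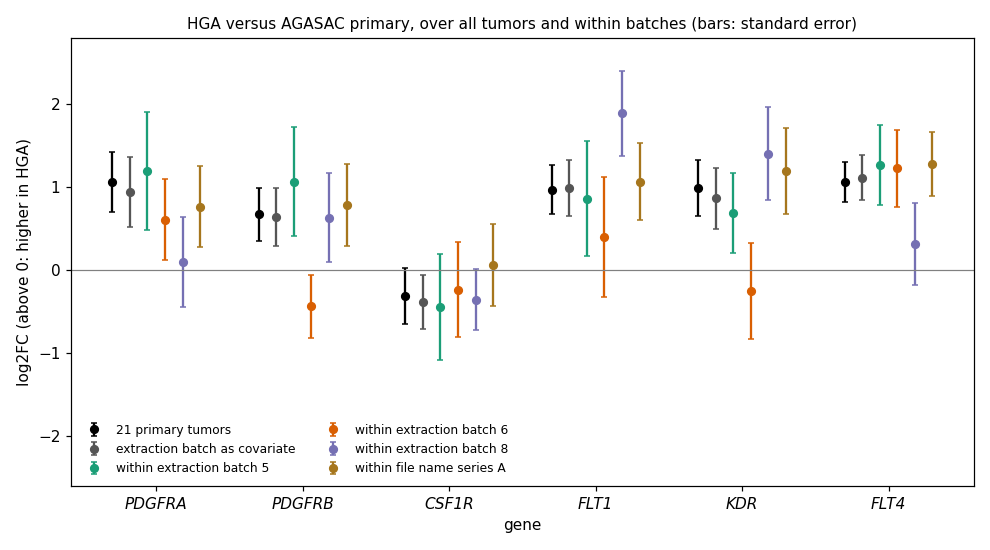
log2FC (vertical axis) with standard error of the 6 receptors that passed the filter, over the 21 primary tumors, with extraction batch as a covariate, within batches 5, 6 and 8, and within the file-name series A that held most HGA. FLT4, FLT1 and PDGFRA stay above 0 throughout, and KDR and PDGFRB are at −0.25 and −0.43 in batch 6.

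Between the metastases and the primary tumors of the same 4 dogs, no receptor passed the test. The main fit held no term for the dog, so its standard errors include the spread between dogs. In dogs 1 to 3 both samples were of the same extraction batch, while AGASAC 4 was of batch 6 and metastasis 4 of batch 5. edgeR called 0 of 12629 genes (0%), with 145 at an unadjusted p below 0.05, and DESeq2 called 5, the muscle genes ACTA1, CKM, MYL1 and MYLPF, lower in the metastases, and SPOCK2. With the dog as a replicate block edgeR called 1, ACTA1. Of the 8 receptors tested, 0 had an unadjusted p below 0.05, and 1 had with the dog as a replicate block. FLT4 was higher in 4 of 4 metastases, from 10.2 to 25.6 CPM in dog 1, 16.7 to 18.8 in dog 2, 14.5 to 16.1 in dog 3 and 20.3 to 22.4 in dog 4 (log2FC 0.42, SE 0.28, adjusted p = 1 from edgeR). The log2 ratio was 1.24 in dog 1 and 0.13 to 0.17 in the others. PDGFRA was lower in 4 of 4, from 16.6 to 11.0, 61.1 to 56.5, 35.0 to 17.4 and 57.0 to 18.5 CPM (log2FC −0.70, SE 0.57, adjusted p = 1 from edgeR). Its log2FC was −0.82 (SE 0.27, adjusted p = 1) with the dog as a replicate block, −1.45 without metastasis 2 and −0.44 without metastasis 1. The largest step of PDGFRA, a log2 ratio of −1.57, was in dog 4, where the extraction batches differed. The 4 dogs kept no common order in the other receptors except FLT3.

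FLT3 was higher in 4 of 4 metastases, from 3.01 to 3.24, 2.94 to 3.45, 0.297 to 1.29 and 3.61 to 4.47 CPM, all small steps at low levels. The metastases lay in lymph nodes, and the summed dendritic, T cell and B cell markers were each higher in 4 of 4 metastases as well. Dendritic markers went from 20.8 to 35.4, 14.4 to 36.4, 7.12 to 22.5 and 10.0 to 34.8 CPM in dogs 1 to 4. T cell markers went from 22.6 to 39.9, 18.95 to 46.4, 19.6 to 59.5 and 39.5 to 43.8 CPM, with 3 of 6 genes at an unadjusted p below 0.05 and 0 called by edgeR or DESeq2. B cell markers went from 41.3 to 41.9, 18.0 to 21.2, 13.6 to 27.0 and 14.7 to 29.1 CPM. The part of these cells in the FLT3 values was not tested. RET went with the dog: dog 1 had 75.0 CPM in the primary and 63.3 in the metastasis, dog 2 had 10.5 and 24.9, dog 3 had 5.93 and 1.29, and dog 4 had 1.95 and 0.639. Thus the tumors highest in RET were high at both sites. FLT1 was at 19.1 CPM in metastasis 2 against 6.86 in its primary, KDR at 27.1 against 14.7 and PDGFRB at 44.8 against 17.6. The other 3 dogs had smaller steps, all downward for PDGFRB and in both directions for FLT1 and KDR. Metastasis 2 also had the highest mural marker sum of the metastases, 482 CPM against 59.4 to 137 in the others. CSF1R was lower in 3 of 4 dogs (log2FC −0.16, SE 0.41), and KIT was lower in 2 of 4 (log2FC −0.24, SE 0.79), with an adjusted p = 1 from edgeR for each.

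**Figure D4:**
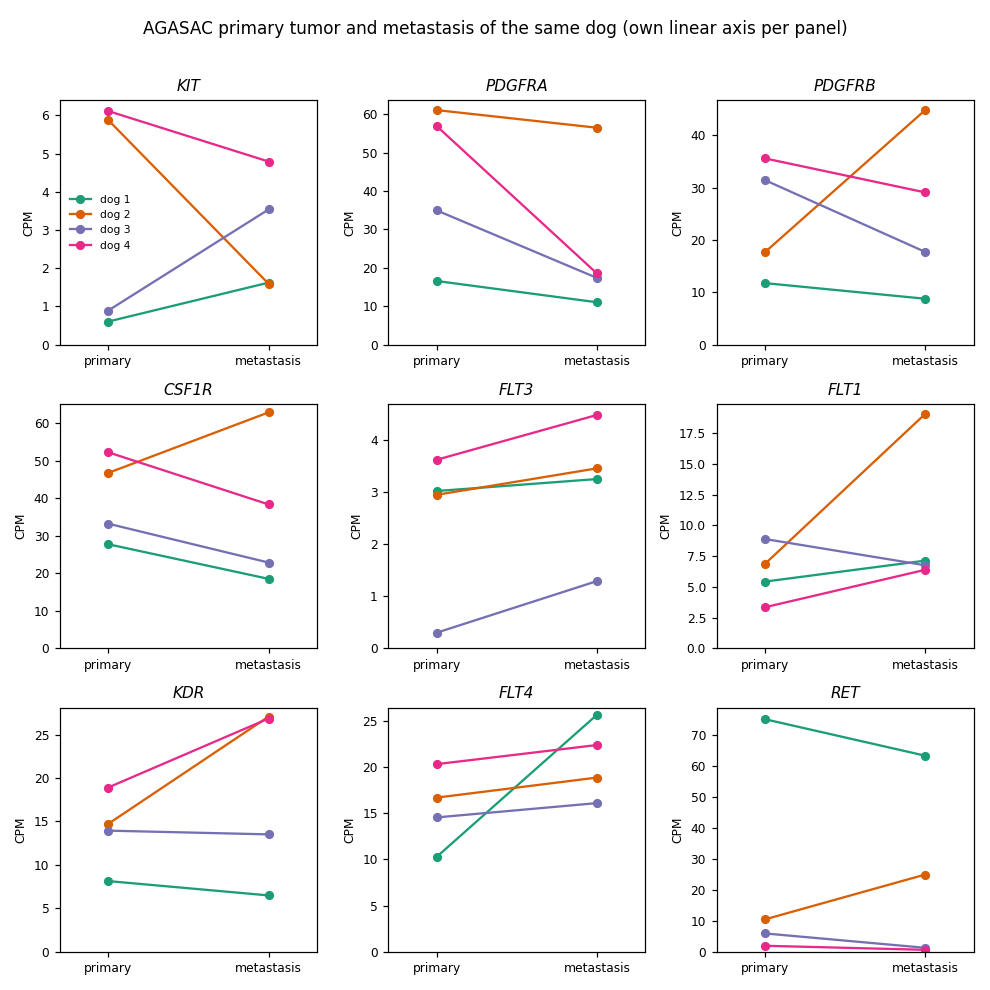
CPM (vertical axis, linear, its own range per panel) of each receptor in the primary AGASAC and the metastasis of dogs 1 to 4, joined by a line per dog. FLT4 and FLT3 lines go up and PDGFRA lines go down in 4 of 4 dogs, with FLT3 resting on 1 to 14 counts per sample. Dog 1 carries RET at 75.0 and 63.3 CPM.

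In HGA versus the metastases, which uses the same HGA as the first comparison, 0 of the 7 receptors tested were called, with 2 at an unadjusted p below 0.05 and 0 called by DESeq2. Over all 13195 genes tested, 2125 (16.1%) were called, 8.4% higher and 7.7% lower in HGA. FLT4 had 25.6, 18.8, 16.1 and 22.4 CPM in the metastases, inside the HGA range, and a log2FC of 0.62 (SE 0.34, adjusted p = 1 from edgeR). PDGFRA had 1.24 (SE 0.48, adjusted p = 0.609), which was 1.97 (adjusted p = 0.0769) without metastasis 2, and FLT1 had 0.50, which was 1.05 without it, neither called. RET had −3.51 (SE 0.97, adjusted p = 0.11), with its high values in metastases 1 and 2. By group medians FLT4 was highest in HGA (28.01 CPM), then metastases (20.6), then primary AGASAC (14.5), and of these neighbors neither HGA and metastases nor metastases and their primaries passed the test. KDR kept that order at 25.1, 20.2 and 14.7 CPM, with no pair called.

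Of 17 genes of ligands of these receptors, ARTN was not found under its symbol, 11 passed the filter in HGA versus primary AGASAC, and 4 were called higher and 2 lower in HGA, against 25.1% of all genes tested. The difference in share from the receptors was not tested. The median log2FC of the 11 was 0.55. VEGFC, the ligand of FLT4, ran from 68.6 through a median of 101 to 141 CPM in HGA and from 0.860 through 3.27 to 7.29 in primary AGASAC, so that the groups were far apart. Its log2FC was 4.88 (SE 0.29, adjusted p = 6.8e-11 from edgeR). VEGFB, a ligand of FLT1, ran from 35.3 in HGA 10 through 251 to 317 CPM in HGA and from 8.49 through 23.4 to 48.7 in primary AGASAC. HGA 10 alone lay within the AGASAC range (log2FC 3.20, SE 0.34, adjusted p = 5.53e-07 from edgeR). Both were also called against the metastases, VEGFC at 4.43 (adjusted p = 4.19e-06) and VEGFB at 3.65 (adjusted p = 0.00388). VEGFC was called within each of batches 5, 6 and 8, at 5.90, 5.01 and 4.102, and VEGFB was called within batches 6 and 8 but not 5, where it had 2.52 (adjusted p = 0.0944).

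VEGFA, the main ligand of KDR, did not follow VEGFB and VEGFC. Its median was 27.0 CPM in HGA and 28.9 in primary AGASAC, but HGA 4 had 1142 CPM and HGA 10 had 122, and the other 8 HGA were at 10.8 to 32.9. The log2FC of 2.48 (SE 0.73, adjusted p = 0.073 from edgeR) was 0.39 (adjusted p = 1) without HGA 4 and 0.34 in DESeq2, which replaced 1 outlying count. Without HGA 5 it was called at 2.62 (adjusted p = 0.0467). Within batches 6 and 8 it turned to −0.59 and −0.13. VEGFD and the placental growth factor PGF, which binds FLT1, did not pass the filter, at no more than 6.33 and 9.13 CPM in any sample.

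Of the platelet-derived growth factors, PDGFA and PDGFD were called higher and PDGFC lower in HGA. PDGFA ran from 21.6 through 39.4 to 74.0 CPM in HGA and from 4.52 through 11.4 to 32.2 in primary AGASAC (log2FC 1.57, SE 0.34, adjusted p = 0.00476 from edgeR). PDGFD, which activates PDGFRB, ran from 10.2 through 35.0 to 68.4 CPM and from 2.29 through 12.5 to 28.9 (log2FC 1.52, SE 0.35, adjusted p = 0.00998). PDGFC, which activates PDGFRA, ran from 0 in HGA 9 through 9.32 to 14.0 CPM in HGA and from 7.93 through 27.1 to 205 in primary AGASAC, where AGASAC 11 and AGASAC 8 were the highest (log2FC −2.58, SE 0.59, adjusted p = 0.00967). With batch as a covariate the calls of PDGFA (1.36, adjusted p = 0.0755) and PDGFC (−1.69, adjusted p = 0.285) were lost. The call of PDGFC was also lost within the file-name series that held most HGA (−2.21, adjusted p = 0.0838) and under a replicate block (−1.70, adjusted p = 0.0839). PDGFD was not called in that series (1.53, adjusted p = 0.277) or with library size alone (1.25, adjusted p = 0.0564), and none of the 3 was called within a single batch. PDGFB was not called (log2FC 0.55, adjusted p = 1), and had 0.14 without HGA 4.

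CSF1, a ligand of CSF1R, was called lower in HGA, where it ran from 0 in HGA 4 through 13.2 to 23.98 CPM, against 19.9 through 35.6 to 64.5 in primary AGASAC (log2FC −1.60, SE 0.37, adjusted p = 0.0103 from edgeR). It was not called within any single batch or within the file-name series that held most HGA (−1.41, adjusted p = 0.825). IL34, the other ligand of CSF1R, had a log2FC of −0.07, the KIT ligand KITLG −0.65 and the FLT3 ligand FLT3LG 0.03, each with an adjusted p = 1. The KITLG medians were 9.31 CPM in HGA and 17.6 in primary AGASAC. The RET ligands GDNF, NRTN and PSPN were at most 3.69, 3.57 and 1.72 CPM in any sample. Between metastases and primaries of the same dogs, 0 of 12 ligands tested were called by edgeR, with 0 at an unadjusted p below 0.05 and 0 called by DESeq2.

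**Figure D5:**
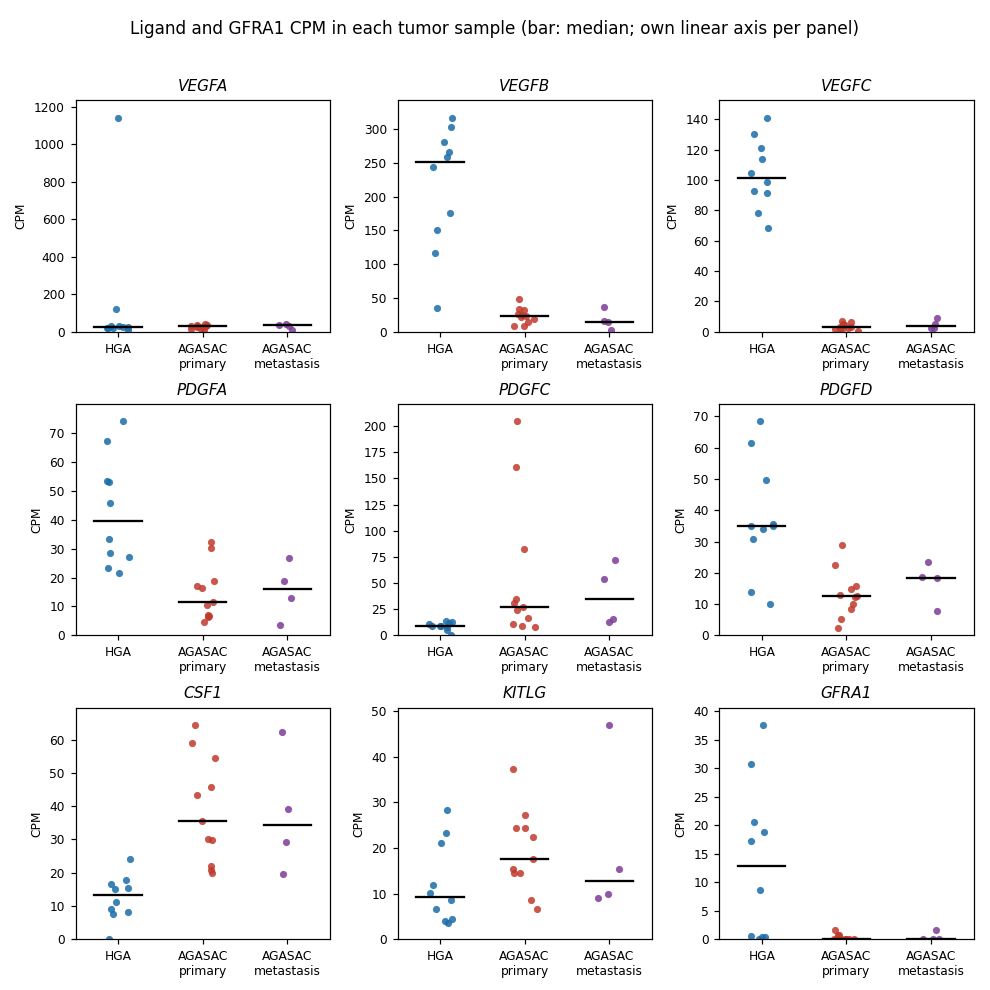
CPM (vertical axis, linear, its own range per panel) of 8 ligands and of GFRA1 in 10 HGA, 11 primary AGASAC and 4 metastases; points are samples and bars medians. VEGFC separates HGA, at 68.6 to 141 CPM, from all AGASAC, and VEGFA is led by HGA 4 at 1142 CPM.

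Among the co-receptors, the neuropilins NRP1 and NRP2, which bind VEGF beside its receptors, were not called. NRP1 had a median of 50.8 CPM in HGA and 19.9 in primary AGASAC with 221 CPM in HGA 4 (log2FC 1.40, SE 0.42, adjusted p = 0.0785 from edgeR). Without HGA 4 its log2FC was 0.92 (adjusted p = 0.332), and it was called without AGASAC 9, HGA 9 or HGA 10, at 1.70 (adjusted p = 0.0126), 1.53 (0.0301) and 1.53 (0.0233). NRP2 had a log2FC of 0.11 (adjusted p = 1), which was −0.20 without HGA 10. GFRA1, which presents GDNF to RET, had 38 to 95 counts in HGA 1, 2, 3, 5, 6 and 8, at 8.57 to 37.6 CPM, and at most 1 count in the other 4 HGA. In primary AGASAC it was at 0 in 8 of 11 and at most 5 counts in the rest. It did not pass the filter, and in the fit without it the log2FC was 5.45 (SE 0.98, adjusted p = 0.00105 from edgeR). The tumors highest in GFRA1 were thus HGA, and those highest in RET were AGASAC. GFRA2, GFRA3 and GFRA4 did not pass the filter, and their log2FC of 3.39, −0.39 and −0.48 in the fit without it had adjusted p of 0.214, 1 and 1.

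Inside the cell, 7 of 23 signaling genes tested were called in HGA versus primary AGASAC, 4 higher and 3 lower, with a median log2FC of 0.00. This share was near the 25.1% of all genes tested. The largest rises in HGA were those of PIK3R1 and PIK3R2, regulatory subunits of PI3K, at 3.25 (adjusted p = 2.96e-07) and 2.40 (adjusted p = 1.64e-09), and of SOCS1, a suppressor of cytokine signaling, at 2.21 (adjusted p = 0.0255). The falls were those of the adaptors GAB2 and GAB1, at −3.81 (adjusted p = 3.42e-07) and −2.61 (adjusted p = 8.29e-08), and of the kinase LYN at −1.93 (adjusted p = 0.000957). Of 25 other receptor tyrosine kinases tested, 14 were called, 8 higher and 6 lower in HGA, against the same 25.1%, with a median log2FC of −0.48. NTRK2, the receptor of brain-derived neurotrophic factor, was higher at 5.66 (adjusted p = 1.09e-08), MET, the hepatocyte growth factor receptor, at 4.82 (adjusted p = 1.16e-05) and its relative MST1R at 2.96 (adjusted p = 0.0305). ROR2, a Wnt receptor, was lower at −3.02 (adjusted p = 0.00329), FGFR1 at −2.64 (adjusted p = 1.14e-07) and EPHB3 at −1.98 (adjusted p = 0.00759). The difference in share between these kinases and the toceranib receptors was not tested.

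Across the 21 primary tumors, with the mean of each tumor type removed, the genes most like each receptor were found from correlations of log2(CPM + 1), which are descriptions only, since the tumors share depth and composition. KDR was closest to PLVAP (r = 0.76) and MMRN2 (r = 0.75), both genes of endothelium, and to INPP5F (r = 0.75). PDGFRA was closest to CPE (r = 0.81), LTBP1 (r = 0.77) and COL12A1 (r = 0.76), the last 2 genes of the extracellular matrix, and PDGFRB to SPATS2L (r = 0.80), CPE and NR2F1 (r = 0.76 each). CSF1R was closest to TMEM229B (r = 0.85), LST1 and the MHC class II gene DLA-DMA (r = 0.84 each). FLT4 was closest to DPT (r = 0.77) and SPON1 (r = 0.75), matrix genes, and TIMM10B (r = 0.72), and FLT1 to GTF3C1 (r = 0.85), ZNF609 (r = 0.81) and SPOP (r = 0.75), none a marker of endothelium. Against the summed markers, KDR had r = 0.63 with blood endothelium, CSF1R r = 0.67 with macrophages, and PDGFRA and PDGFRB r = 0.70 each with blood endothelium and 0.69 with each other. With the markers of stroma, PDGFRA had r = 0.685 for fibroblast and 0.53 for mural markers, and PDGFRB had 0.647 for each. FLT4 had r = 0.57 with fibroblast, 0.55 with lymphatic, 0.53 with Schwann and neural and 0.40 with blood endothelial markers. FLT3 had 0.43 with mural and 0.40 with dendritic markers. Against the markers of their own cells, FLT1 had r = 0.025 with blood endothelium, KIT −0.048 with mast cells and 0.17 with melanocytes, and RET −0.24 with Schwann and neural markers. Their highest r over the lists was 0.418 with luminal markers for FLT1, 0.425 with lymphatic markers for KIT and 0.183 with mast cell markers for RET. In the assembly UU_Cfam_GSD_1.0, PDGFRA, KIT and KDR are neighbors with 0 coding genes between them, as are PDGFRB and CSF1R, and 1 gene, PAN3, lies between FLT3 and FLT1.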

How the data were processed

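QuantSeq 3′ libraries (FWD kit, which keeps the strand) of the 25 FFPE tumor samples were used. The authors trimmed reads with Cutadapt, aligned them to CanFam3.1 with STAR, counted them with featureCounts in rounds, the last on genes extended at the 3′ end, split multi-mapped reads evenly, and deposited raw counts per gene. A signal, the counts divided by size factors, was deposited beside them and was not used, and neither were the authors' log2 fold changes and p-values. Tool versions are not given in the sources used here. Extraction batches and file-name series come from the study's sample sheets, where the series of AGASAC 4 was not known.

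The analysis used edgeR 4.0.16 in R 4.3.3: filterByExpr by tumor type (minimum count 10, minimum total count 15), TMM, and the quasi-likelihood test without covariates. The standard error of an unshrunken log2FC was taken as the log2FC over the square root of F. CPM use TMM factors over all 25 samples, and correlations a pseudocount of 1. Calls required both a Benjamini-Yekutieli adjusted p up to 0.05 and a log2FC of size 1 or more. The comparisons were HGA (n = 10) versus primary AGASAC (n = 11), metastases versus primaries of the same dogs (n = 4 each) and HGA versus metastases. The first shares its HGA with the last and primaries with the other. Primary tumors came from separate dogs by the labels, and p-values measure the spread between these samples.

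Metastasis and primary of a number are from the same dog by the labels, and their deviations correlated across genes at r = 0.42 to 0.71 in 4 of 4 dogs. No 2 samples of the same group were duplicates (chi-square per degree of freedom at least 12.2), and pairs across groups were not checked. The tests were tested on simulated data. Alternatives were DESeq2 1.42.0 (Wald test, no shrinkage), RLE, library size alone, other filters, Benjamini-Hochberg adjustment, batch terms and subsets, a replicate block, and leaving out each sample. The 9 receptors, the gene lists (ligands, co-receptors, signaling, other receptor kinases, cell type markers), the tests and the alternatives were chosen with earlier results of these data known. Named were all receptors, all ligands and co-receptors in the table, the called signaling and other kinase genes among the 3 largest rises and 3 largest falls, the most abundant or absent markers and called markers, and the 3 genes most like each receptor that passed the filter. The genes called between metastases and primaries, and receptors of single samples, were named after their values were seen. Sequences and coordinates were left out, because the reference gene table is not of the build used for counting.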

Additional observations from a re-analysis of the deposited data

Results flagged for a closer look

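Of 56 sets of 4 to 10 samples tested (9 receptors and their ligands and co-receptors in HGA and in the metastases), 12 had a sample farther from the others than Dixon's 95% limit allows. The rate of about 1 in 20 by chance holds for normally distributed values, while CPM were used untransformed. Where all other samples were at 0 (PSPN in HGA 10, GFRA1 in metastasis 2), the ratio is 1 by construction. The 12 are therefore not read as an excess over chance. The genes share samples, so the 12 are not independent. Among the receptors, metastasis 2 had PDGFRA at 56.5 CPM against 11.0 to 18.5 in the other metastases, and FLT1 at 19.1 CPM against 6.39 to 7.14. Metastasis 2 also held GFRA1 at 1.59 CPM (6 counts) against 0 in the others, and metastasis 1 held KITLG at 47.0 CPM against 9.02 to 15.4.

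HGA 4 accounted for 3 of the 12: VEGFA at 1142 CPM against 10.8 to 122 in the other HGA, NRP1 at 221 CPM against 10.3 to 72.3, and PDGFB at 35.7 CPM against 2.12 to 17.6. HGA 10 had NRP2 at 232 CPM against 41.9 to 98.4, and PSPN at 1.72 CPM (4 counts) against 0. The GFRA genes were high in single HGA, with GFRA2 at 45.6 CPM in HGA 3 against at most 7.39, GFRA4 at 4.25 CPM in HGA 7 against at most 1.36, and GFRA3 at 1.27 CPM (7 counts) in HGA 1 against at most 0.452. The 11 primary AGASAC were too many for this rule, so KIT in AGASAC 11 and RET in AGASAC 1 were not tested by it. The causes were not tested.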

How the results depend on the processing

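In HGA versus primary AGASAC, FLT4 stayed higher in HGA under every alternative run, but its call, and with it the count of 1 receptor called, did not. The count was 0 with library size alone, with at least 10 counts in every sample, within batches 5, 6 and 8, with all 15 AGASAC samples and with the replicate block over numbers 1 to 10 (FLT4 1.02, adjusted p = 0.0595), it was 2 (FLT4 and PDGFRA) with Benjamini-Hochberg adjustment, and it ran from 0 to 2 when single samples were left out. KIT did not pass the filter and is not in this count. In the fit without the filter, KIT met both limits with Benjamini-Hochberg adjustment (log2FC −2.09, adjusted p = 0.0336 from edgeR). HGA and AGASAC of the same number share only that number (r = −0.06 to 0.04). With at least 10 counts in every sample 1452 genes were called, 12 of them ligands, co-receptors, signaling genes or other kinases, against 3032 and 27. Within batches 5, 6 and 8 the counts were 262, 637 and 338 genes and 4, 10 and 5 of these lists, with fewer samples. Signs turned within batch 6 for PDGFRB (−0.43), KDR (−0.25), RET (1.12) and VEGFA (−0.59), within batch 8 for VEGFA (−0.13), and within file-name series A for CSF1R (0.062). NRP2 turned to −0.16 with library size alone, −0.095 with batch as a covariate, −1.10 within batch 8 and −0.24 within series A, and ran from −0.20 to 0.44 with single samples left out.

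Between metastases and primaries DESeq2 called 5 genes and the paired fit with the dog as a replicate block 1, and no receptor. KIT turned to 0.033 and PDGFRB to −0.047 under that replicate block, and RET to 1.296 against all 11 primaries. With single samples left out, log2FC ran from −1.45 to −0.44 for PDGFRA, −0.60 to 0.25 for KIT, −0.39 to 0.36 for PDGFRB, −0.60 to 0.069 for CSF1R, −0.037 to 0.58 for FLT3 and −1.31 to 1.87 for RET. In HGA versus metastases, 1153 genes and 10 list genes were called with at least 10 counts in every sample, and 3537 genes, 29 list genes and 1 receptor (RET) with Benjamini-Hochberg adjustment, against 2125, 19 and 0, and CSF1R ran from −0.28 to 0.37 with single samples left out. RET was tested in 9 of those 14 fits, as it did not pass the filter in the others. The likeness of GTF3C1 to FLT1 was r = 0.74 without the 2 farthest samples, and that of DPT to FLT4 was 0.62 without them and 0.66 as Spearman's rho. The causes were not tested. KIT, FLT3, RET and the RET ligands had 3 counts or fewer in many libraries, which limits their precision.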
